A study of Homo sapiens with 12 samples.

Results

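The matrix metalloproteinases and their tissue inhibitors were followed in RNA-seq counts of 2 lung cancer cell lines, A549 and PC9, that carried either a HOXC6 expression vector or the empty vector. The 10 genes were taken from the deposited count table by name or Ensembl identifier. They are the metalloproteinases MMP2, MMP7, MMP9, MMP14, MMP15 and MMP24, the inhibitors TIMP1, TIMP2 and TIMP3, and the gene ENSG00000129270. The table used here holds 12584 genes, and 22 of them are named as an MMP or a TIMP in the GENCODE annotation of GRCh37. ENSG00000129270 had no entry in the annotation or name tables used here. It is believed to be an older identifier of MMP28, which could not be checked, so it is called by its identifier.

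A549 and PC9 are established human non-small cell lung cancer lines, both derived from lung adenocarcinoma. A549 was kept in RPMI medium and PC9 in DMEM, so line and medium cannot be told apart in comparisons between the lines. The study infected each line with a lentiviral vector for HOXC6, a homeobox transcription factor, or with the empty control vector pCDH-NEO, and grew the cells in neomycin. The 4 groups were named A549-HOXC6, A549-NEO, PC9-HOXC6 and PC9-NEO, with 3 libraries in each group and 12 in all. All 4 groups therefore carried a lentiviral vector and had been under selection. Whether each was a pool of infected cells or 1 clone is not given in the sources used here. The label calls the libraries independent replicates without saying what was repeated, so the p-values measure the spread between these libraries. The count of HOXC6 itself was not analysed here, so the vector label was not checked against it.

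Matrix metalloproteinases are zinc-dependent endopeptidases that cut collagens, laminins, proteoglycans and cell surface proteins. Most are secreted as inactive proenzymes, while the membrane-type enzymes MMP14, MMP15 and MMP24 are anchored at the cell surface. TIMPs block the active enzymes by filling the catalytic cleft. TIMP2 also takes part in activation, because a complex of MMP14 and TIMP2 at the cell surface receives the MMP2 proenzyme for cleavage. Turnover of basement membrane by these enzymes is a known part of tumor cell invasion, and much of the regulation takes place after transcription, which RNA counts do not record.

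The libraries held 1212053 to 3286577 counts each, and the floor of 3 counts corresponded to 0.914 to 2.56 CPM, the count scaled to the size of the library with TMM factors. The third A549-HOXC6 library stood apart. In it 509 genes had a count that they had in no other library, against 7 to 32 genes in each of the others, and 11195 genes had a count, against 9714 to 10331. It also held the only A549 counts of the leukocyte markers PTPRC (4 counts) and MPO (5) and of the endothelial markers KDR (6), VWF (4) and TEK (2). In PC9, VWF had 4 counts in the third NEO and 5 in the third HOXC6 library. PTPRC and TEK had at most 2 counts in any PC9 library, and MPO and KDR had none. The summed leukocyte list, which CD68 dominated, was at 8.23 to 10.7 CPM in A549-NEO and 14.5 to 26.7 CPM in A549-HOXC6. The A549 change of a member is therefore given with and without this library where the call depends on it. In both vector comparisons, log2 fold changes rose with the GC content of the transcript, with a Spearman correlation across genes of 0.530 in A549 and 0.527 in PC9, where genes are not independent replicates. Values after a correction of each library for trends on GC content and length are given beside those of the vector comparisons, and between the NEO lines where they end a call. ENSG00000129270 has no sequence in the reference used here and was left uncorrected.

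Both lines expressed the epithelial markers, with 5 of 6 measured markers above 3 summed counts in every group. Metalloproteinases are often produced by stromal cells. Of 10 fibroblast markers, 5 were above 3 summed counts in A549-NEO, 6 in A549-HOXC6 and 2 in each PC9 group. Those at or near 0 in every group were COL1A2, DCN, FAP and LUM. LUM had 0 counts in every library, and the only counts of COL1A2 (1), DCN (1) and FAP (2) were in the third A549-HOXC6 library. PDGFRB in A549-NEO, and COL3A1, PDGFRA, PDGFRB and THY1 in PC9, were also at or under 3 summed counts. ACTA2 and COL1A1, which tumor cells can also express, made up most of the signal of that list in the NEO groups. Its summed level was 157 to 169 CPM in A549-NEO, 133 to 158 CPM in A549-HOXC6, 22.0 to 36.7 CPM in PC9-NEO and 34.6 to 48.6 CPM in PC9-HOXC6.

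TIMP1 and TIMP2 were the most abundant in A549-NEO of the 9 genes with a known transcript length, and TIMP3 was the least. Levels of different genes are compared per kb of the canonical transcript. In A549-NEO, TIMP1 stood at 275 ± 10.7 CPM per kb (SD, n = 3) and TIMP2 at 211 ± 4.64 CPM per kb. MMP15, a membrane-type enzyme, followed at 83.6 ± 6.01 CPM per kb, then MMP24, another membrane-type enzyme, at 46.9 ± 1.47 CPM per kb and MMP7, the matrilysin of epithelial cells, at 29.9 ± 5.75 CPM per kb. The membrane-type enzyme MMP14 stood at 4.45 ± 0.480 CPM per kb. The gelatinases MMP9 and MMP2 were lower, at 2.55 ± 0.897 and 1.74 ± 0.553 CPM per kb, and their libraries overlapped. TIMP3 was last, at 0.0826 ± 0.00639 CPM per kb.

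In PC9-NEO the order differed. TIMP1 led at 95.1 ± 6.16 CPM per kb, and MMP15 and TIMP2 followed with overlapping libraries, at 71.9 ± 3.85 and 70.9 ± 4.35 CPM per kb. TIMP3 came next, at 51.3 ± 0.816 CPM per kb. MMP24 stood at 12.2 ± 2.66 CPM per kb, and MMP9 and MMP14 again overlapped, at 3.60 ± 0.955 and 2.79 ± 0.630 CPM per kb. MMP2 had 0, 0 and 2 counts in the PC9-NEO libraries, and MMP7 had none.

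With the HOXC6 vector the order kept the same first places in each line. In A549-HOXC6, TIMP1 stood at 309 ± 32.1 CPM per kb and TIMP2 at 179 ± 5.17 CPM per kb, and the libraries of MMP15 and MMP24 now overlapped, at 79.6 ± 8.86 and 69.9 ± 10.1 CPM per kb. MMP2 stood above MMP14 there, at 4.66 ± 2.05 against 2.77 ± 0.175 CPM per kb, whereas in A549-NEO it stood below. In PC9-HOXC6, TIMP1, MMP15 and TIMP2 had levels of 99.1 ± 7.64, 95.6 ± 6.92 and 89.8 ± 2.42 CPM per kb, and each overlapped with the next.

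**Figure D1:**
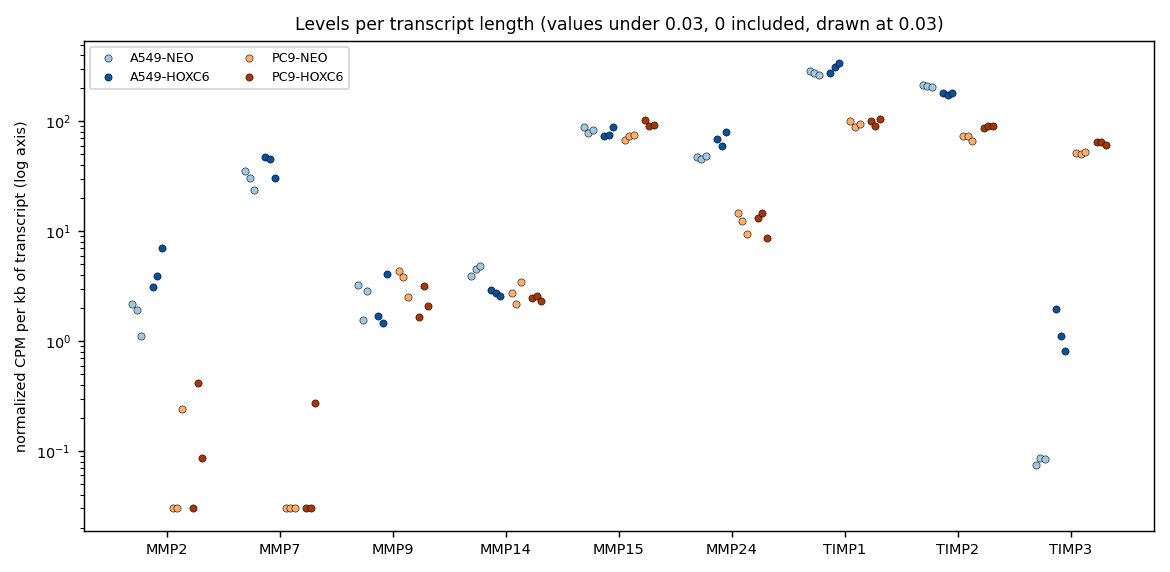
Level of 9 metalloproteinase and inhibitor genes in normalized CPM per kb of transcript, on a log axis, with 1 point per library and a color per group. TIMP1 was the highest gene on average in each group, TIMP3 was near the bottom in A549 and at 51.3 CPM per kb in PC9-NEO, and MMP7 and MMP2 lay near or at 0 in PC9.

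The first comparison asked how the lines, each in its own medium, differed without the HOXC6 vector. MMP7 and MMP2 were A549 genes in these libraries, TIMP3 was a PC9 gene, and MMP24, TIMP1 and TIMP2 were higher in A549. By edgeR's quasi-likelihood test, 5 of 8 members tested passed both thresholds, an adjusted p under 0.05 with a change beyond 1 on the log2 scale, against 36% of all genes tested. Of these, 4 were higher and 1 lower in A549-NEO, against 19.6% and 16.4% of all genes. At an adjusted p under 0.05 alone, 7 of 8 passed, against 72.7% of all genes, with 6 higher against 36.9% and 1 lower against 35.7%. The same 7 had groups that did not overlap, against 74.4% of all genes, so the wider counts lie near a high background. MMP7 entered the test through A549-NEO alone and TIMP3 through PC9-NEO alone, so they are no support in these counts. In bulk RNA, fewer cells with a transcript and less transcript per cell cannot be told apart.

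MMP7 (chr11:102391239-102401481, GRCh37, minus strand) had 114, 85 and 68 counts in A549-NEO against 0 in each PC9-NEO library. Every A549-NEO library was thus far above every PC9-NEO library. Set against a floor of 3 counts per PC9-NEO library, MMP7 was at least 22.8-fold higher in A549-NEO. With the HOXC6 vector, PC9 still had only 1 MMP7 count, in the third library.

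TIMP3 (chr22:33197691-33259028, plus strand), an inhibitor that binds to the extracellular matrix and also blocks some ADAM proteases, showed the opposite pattern. It had 437, 462 and 566 counts in PC9-NEO and 1 count in each A549-NEO library. The ratio of the summed counts per total, 1465 against 3, was 624, with a 95% counting interval of 213 to 3030. Leaving out any library gave ratios of 595 to 642.

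MMP2 (chr16:55423612-55540603, plus strand), gelatinase A, had 22, 17 and 10 counts in A549-NEO against 0, 0 and 2 in PC9-NEO. It did not pass the low-count filter of this comparison. The ratio of the summed counts per total was 19.2, with a counting interval of 5.03 to 163. The difference was called when no filter was applied (adjusted p = 3.9e-07 by edgeR).

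MMP24 (chr20:33814493-33864801, plus strand) had 206, 199 and 212 CPM in A549-NEO against 64.7, 53.8 and 41.5 CPM in PC9-NEO. The groups were well apart, with a log2 fold change of 2.003 ± 0.109 (SE, adjusted p = 1.4e-18 by edgeR). MMP24 shares 806 of 4376 exonic bases with MMP24OS on the opposite strand, and the strand setting of the authors' counting is not given in the sources used here. MMP24OS itself was at 202 ± 27.7 CPM in A549-NEO and 27.0 ± 4.79 CPM in PC9-NEO, so reads of the pair may not be fully separated.

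TIMP1 (chrX:47441807-47446188, plus strand), a broad inhibitor with weak action on membrane-type enzymes, had 220, 211 and 204 CPM in A549-NEO against 78.2, 68.8 and 72.4 CPM in PC9-NEO. TIMP2 (chr17:76849059-76921469, minus strand) had 787, 769 and 753 CPM in A549-NEO against 269, 267 and 241 CPM in PC9-NEO. The log2 fold changes were close in size, 1.57 ± 0.0924 for TIMP1 (adjusted p = 1.4e-17 by edgeR) and 1.61 ± 0.0647 for TIMP2 (adjusted p = 1.1e-22).

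The remaining members differed less between the NEO lines. MMP14 (chr14:23305769-23318250, plus strand) was at 16.5 ± 1.78 CPM in A549-NEO and 10.3 ± 2.33 CPM in PC9-NEO, a log2 fold change of 0.69 ± 0.258 (adjusted p = 0.0165 by edgeR) that missed the threshold with DESeq2 (adjusted p = 0.0656) and without either the third A549-NEO or the second PC9-NEO library (0.64 and 0.53 on the log2 scale). MMP15 (chr16:58059658-58080805, plus strand) was at 339 ± 24.4 and 292 ± 15.6 CPM, a log2 fold change of 0.26 ± 0.0719 (adjusted p = 0.0018) that was 0.13 after the GC correction (adjusted p = 0.0816) and 0.14 with scaling by library size only. MMP9 (chr20:44637547-44645200, plus strand), gelatinase B, had 22, 9 and 17 counts in A549-NEO against 19, 18 and 14 in PC9-NEO, and the groups overlapped (log2 fold change -0.41 ± 0.354, adjusted p = 0.296). ENSG00000129270 had 8, 22 and 16 counts in A549-NEO against 2, 4 and 5 in PC9-NEO and did not pass the filter of this comparison. Without the filter its log2 fold change was 1.75 ± 0.547 (adjusted p = 0.0027 by edgeR).

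The promoter windows of MMP7, TIMP3 and MMP24 are shown because these are the members with a promoter entry whose levels differed most between the NEO lines. They come from the RefSeq promoter table for GRCh38.p14, cover 250 bases before to 50 bases after the gene start, and are written in the direction of transcription. Of the 10 genes, 6 matched an entry of that table. MMP2, MMP9, TIMP2 and ENSG00000129270 had none. Capitals mark, on either strand, TGANTCA (the AP-1 motif), TATAAA (the TATA box), GGGCGG (the SP1 motif) and CTTTGA (a TCF/LEF motif), and none of the marked motifs overlap. The windows are chr11:102530698-102530997 on the minus strand for MMP7, chr22:32801455-32801754 on the plus strand for TIMP3 and chr20:35226440-35226739 on the plus strand for MMP24.
MMP7: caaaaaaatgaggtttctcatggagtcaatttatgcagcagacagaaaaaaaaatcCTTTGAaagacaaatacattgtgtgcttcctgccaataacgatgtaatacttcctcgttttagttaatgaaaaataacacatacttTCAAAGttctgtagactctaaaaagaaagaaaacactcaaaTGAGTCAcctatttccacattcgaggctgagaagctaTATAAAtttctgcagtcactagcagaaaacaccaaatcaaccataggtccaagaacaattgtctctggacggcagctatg
TIMP3: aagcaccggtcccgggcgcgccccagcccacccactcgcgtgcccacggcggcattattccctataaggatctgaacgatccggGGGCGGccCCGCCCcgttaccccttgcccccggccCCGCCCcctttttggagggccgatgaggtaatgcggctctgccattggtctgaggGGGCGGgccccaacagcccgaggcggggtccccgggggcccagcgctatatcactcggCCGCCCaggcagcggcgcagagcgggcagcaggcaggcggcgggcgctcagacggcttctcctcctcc
MMP24: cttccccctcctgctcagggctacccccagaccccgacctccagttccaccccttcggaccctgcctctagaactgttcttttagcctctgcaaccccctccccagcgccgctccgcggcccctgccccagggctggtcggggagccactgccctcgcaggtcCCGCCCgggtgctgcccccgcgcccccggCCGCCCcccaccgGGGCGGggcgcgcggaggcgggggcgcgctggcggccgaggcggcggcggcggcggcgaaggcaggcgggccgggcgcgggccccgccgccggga
The MMP7 window held 1 AP-1 motif, 1 TATA box and 2 TCF/LEF motifs, with a GC content of 35.7%. The TIMP3 window held 5 SP1 motifs at 72.7% GC, and the MMP24 window 3 at 80.0% GC. The median GC content of the 35116 promoters in the table was 58.7%. Of these promoters, 7.71% held the AP-1 motif, 11.5% the TATA box, 45.0% the SP1 motif and 12.9% the TCF/LEF motif. TAAT, the core of many homeodomain sites, occurred 2 times in the MMP7 window, 2 times in the TIMP3 window and not in the MMP24 window, and 50.2% of the promoters held it. These counts describe the letters and no binding.

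The comparison of A549-HOXC6 with A549-NEO asked which genes changed with HOXC6 in A549. MMP2, ENSG00000129270 and the membrane-type enzyme MMP24 rose, and the inhibitor TIMP2 and MMP14 fell, MMP14 with less certainty. TIMP3 went from 1 count per library to a low but measurable level. By edgeR, 2 of 9 members tested passed both thresholds, against 7.21% of all genes tested. Both were higher, against 1.7% of all genes, and none was lower, against 5.51%. These 2 members, MMP2 and ENSG00000129270, passed the low-count filter through A549-HOXC6, where they are high. The A549-NEO libraries alone would not have carried them past it, so that count is no support. At an adjusted p under 0.05 and any size of change, 5 of 9 passed, against 39.6% of all genes, with 3 higher against 18.9% and 2 lower against 20.7%. The same 5 members had groups that did not overlap, against 50.4% of all genes, so the last 2 shares are near the background.

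MMP2 had 22, 17 and 10 counts in A549-NEO against 30, 16 and 46 in A549-HOXC6. In CPM these were 7.62, 6.82 and 3.92 against 10.9, 13.7 and 24.5. Each A549-HOXC6 library lay above each A549-NEO library, and the third A549-HOXC6 library was the highest. The log2 fold change was 1.34 ± 0.342 (adjusted p = 0.0028 by edgeR). Without the third A549-HOXC6 library it was 0.91 ± 0.376 and missed both thresholds (adjusted p = 0.0539). In that library several other metalloproteinase genes had counts that the other A549-HOXC6 libraries lacked, among them 22 counts of MMP11 against 2 and 0. The part of this library's extra transcripts in the MMP2 value was not tested. After the GC correction the log2 fold change of MMP2 was 1.06 ± 0.326 (adjusted p = 0.0105).

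ENSG00000129270 had 8, 22 and 16 counts in A549-NEO against 38, 15 and 31 in A549-HOXC6, or 2.77, 8.82 and 6.27 against 13.8, 12.8 and 16.5 CPM. The groups did not overlap. The log2 fold change was 1.26 ± 0.345 (adjusted p = 0.0050 by edgeR) and 1.17 without the third A549-HOXC6 library. It was 0.89 without the first A549-NEO library, the lowest of its group, and then missed both thresholds (adjusted p = 0.0522).

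MMP24 had 206, 199 and 212 CPM in A549-NEO against 303, 263 and 351 CPM in A549-HOXC6. Every A549-HOXC6 library was above the A549-NEO range, and the rise was 1.45-fold (log2 fold change 0.54 ± 0.0959, adjusted p = 6.8e-05 by edgeR). It was 0.45 without the third A549-HOXC6 library (adjusted p = 2.0e-05) and 0.31 ± 0.0762 after the GC correction (adjusted p = 0.0015). MMP24OS, which shares exonic bases with it on the opposite strand, rose more, from 202 ± 27.7 to 402 ± 56.3 CPM (log2 fold change 0.94 ± 0.105, adjusted p = 6.5e-08). The part of reads from MMP24OS in the MMP24 value was not tested.

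TIMP2 fell by a small and even amount. It had 787, 769 and 753 CPM in A549-NEO against 667, 632 and 662 CPM in A549-HOXC6, and the groups were apart by more than the spread within either. The log2 fold change was -0.28 ± 0.0732 (adjusted p = 0.0036 by edgeR), and each library left out in turn gave -0.30 to -0.26. After the GC correction it was -0.53 ± 0.0572.

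MMP14, which cuts collagen at the cell surface and activates MMP2, had 42, 42 and 46 counts in A549-NEO against 30, 12 and 18 in A549-HOXC6, or 14.5, 16.8 and 18.04 against 10.9, 10.3 and 9.61 CPM. The A549-HOXC6 libraries were all below the A549-NEO libraries. The log2 fold change was -0.71 ± 0.265 (adjusted p = 0.0329 by edgeR). The call was lost with DESeq2 (adjusted p = 0.146) and when any library but the first A549-NEO library was left out, for example without the third A549-HOXC6 library (-0.65, adjusted p = 0.0810). The fall was larger after the GC correction, at -0.97 ± 0.266 (adjusted p = 0.0038).

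TIMP3 had 1 count in each A549-NEO library and 25, 6 and 7 counts in A549-HOXC6, or 0.346, 0.401 and 0.392 against 9.08, 5.13 and 3.73 CPM. All A549-HOXC6 libraries lay above the A549-NEO libraries, and the first was the highest. TIMP3 did not pass the filter of this comparison. The ratio of summed counts per total, 38 against 3, was 17.3, with a counting interval of 5.50 to 87.8, and it was 20.9 without the third A549-HOXC6 library and 11.3 without the first. Without the filter the estimate of edgeR was 3.83 ± 0.778 on the log2 scale (adjusted p = 1.0e-05), and that of DESeq2 was 3.98 ± 1.08 (adjusted p = 0.0018). The A549-HOXC6 level remained far below the 232 to 239.7 CPM of the PC9-NEO libraries.

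Because TIMP3 is abundant in PC9, other genes of that line were examined in the A549-HOXC6 libraries. There were 34 genes with at least 50 CPM in PC9-NEO and at most 3 summed counts in A549-NEO, TIMP3 among them. In the A549-HOXC6 libraries the median of these 34 genes was 0, 0 and 0.534 CPM, and 2 of them had more than 3 counts in each library. TIMP3 ranked first by summed counts with 38, WNT6 followed with 32, and the next, ALPP, had 6 and was at 650.3 CPM in PC9-NEO. The source of the TIMP3 counts in A549-HOXC6 was not tested.

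MMP7, MMP15, MMP9 and TIMP1 did not pass the test in A549. MMP7 had 39.5, 34.1 and 26.7 CPM in A549-NEO against 53.4, 50.4 and 34.2 CPM in A549-HOXC6, with overlapping groups (log2 fold change 0.42 ± 0.186, adjusted p = 0.0751 by edgeR). It passed at 0.61 without the third A549-HOXC6 library (adjusted p = 0.0044) and at 0.47 after the GC correction (adjusted p = 0.0304). MMP15 was at 339 ± 24.4 and 323 ± 36.0 CPM (log2 fold change -0.11 ± 0.0906, adjusted p = 0.329). It passed at -0.20 without the third A549-HOXC6 library (adjusted p = 0.0383) and at -0.32 after the GC correction (adjusted p = 5.3e-04). TIMP1 was at 211 ± 8.20 and 238 ± 24.7 CPM (log2 fold change 0.12 ± 0.0952, adjusted p = 0.345), and its sign turned to -0.22 with the GC correction (adjusted p = 0.0281). MMP9 had 22, 9 and 17 counts in A549-NEO against 11, 4 and 18 in A549-HOXC6, and its log2 fold change of -0.12 ± 0.426 carried a 95% interval of -0.95 to 0.72 and was -0.42 after the GC correction (adjusted p = 0.469). Without the third A549-HOXC6 library the log2 fold change of MMP9 was -0.68 ± 0.507 (adjusted p = 0.306 by edgeR).

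**Figure D2:**
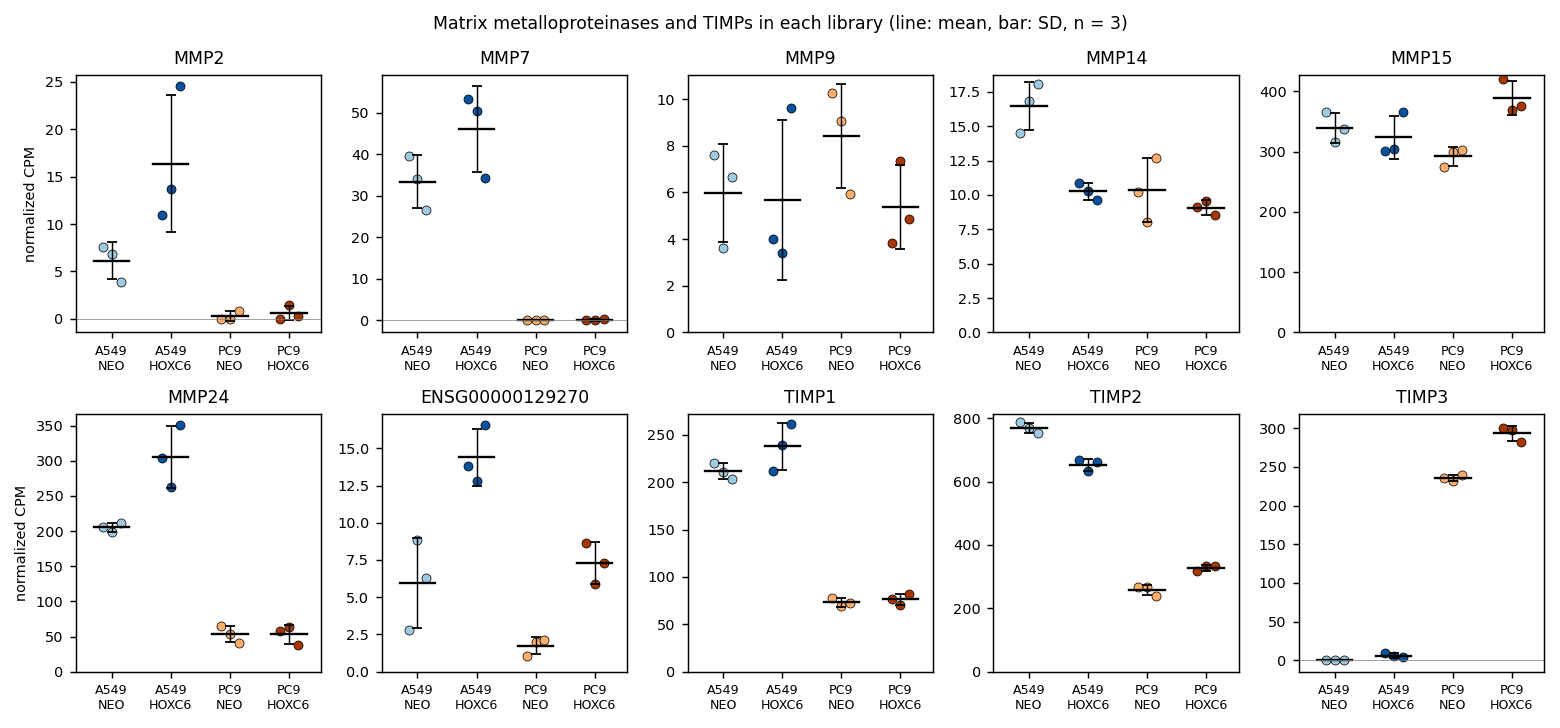
Normalized CPM of each of the 10 genes in each of the 12 libraries, with a linear axis per gene, the mean as a line and the SD as a bar (n = 3). MMP2, MMP24 and ENSG00000129270 lay higher and MMP14 and TIMP2 lower in all A549-HOXC6 libraries, and MMP15, TIMP2, TIMP3 and ENSG00000129270 lay higher in all PC9-HOXC6 libraries.

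In the same comparison in PC9, ENSG00000129270 rose. MMP15, TIMP2 and TIMP3 rose slightly as counted and did not pass after the correction for GC content. By edgeR, 1 of 8 members tested passed both thresholds, against 4.53% of all genes tested, and it was higher, against 0.962% of all genes. None was lower, against 3.56%. The member past both thresholds, ENSG00000129270, entered the test through PC9-HOXC6, where it is high, so that count is no support. At an adjusted p under 0.05, 4 of 8 passed, all higher, against 27.5% of all genes in either direction, 13.3% higher and 14.2% lower. The same 4 had groups that did not overlap, against 39.9% of all genes. MMP2 and MMP7 were at or below 2 counts in every PC9 library and were not tested.

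ENSG00000129270 had 2, 4 and 5 counts in PC9-NEO against 18, 8 and 24 in PC9-HOXC6, or 1.08, 2.01 and 2.12 against 8.67, 5.89 and 7.31 CPM. Each PC9-HOXC6 library was above each PC9-NEO library. The log2 fold change was 2.03 ± 0.475 (adjusted p = 0.0016 by edgeR), and it ran from 1.81 to 2.21 with each library left out in turn. The PC9-NEO counts were near the floor of 3, so the size of this change is imprecise, with a 95% interval of 1.10 to 2.96.

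MMP15 had 274, 299 and 303 CPM in PC9-NEO against 420.5, 368 and 376 CPM in PC9-HOXC6, a rise of 1.33-fold with groups apart (log2 fold change 0.41 ± 0.0732, adjusted p = 7.7e-05 by edgeR). TIMP2 had 269, 267 and 241 CPM in PC9-NEO against 318, 332 and 334 CPM in PC9-HOXC6 (log2 fold change 0.35 ± 0.0734, adjusted p = 6.2e-04). TIMP3 had 236, 232 and 239.7 CPM in PC9-NEO against 300.1, 298 and 282 CPM in PC9-HOXC6 (log2 fold change 0.31 ± 0.0734, adjusted p = 0.0017). For each of these 3 genes, the PC9-HOXC6 libraries all lay above the PC9-NEO libraries. After the GC correction the log2 fold changes were 0.17 for MMP15 (adjusted p = 0.0899), 0.15 for TIMP2 (adjusted p = 0.133) and 0.19 for TIMP3 (adjusted p = 0.0522), and none passed. MMP15 has 65.5% GC in its transcript, TIMP2 53.7% and TIMP3 48.7%, and the median of the genes tested was 48.7%.

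The other PC9 members gave overlapping groups. MMP9 had 19, 18 and 14 counts in PC9-NEO against 8, 10 and 16 in PC9-HOXC6 (log2 fold change -0.69 ± 0.382, adjusted p = 0.186 by edgeR), and MMP14 had 19, 16 and 30 against 19, 13 and 28 counts (-0.21 ± 0.308, adjusted p = 0.653). With the GC correction these were -0.94 (adjusted p = 0.0793) and -0.45 (adjusted p = 0.326). MMP24 was at 53.3 ± 11.6 and 53.2 ± 13.7 CPM (log2 fold change -0.05 ± 0.174, with a 95% interval of -0.39 to 0.29), or -0.29 after the GC correction (adjusted p = 0.263). TIMP1 was at 73.2 ± 4.74 and 76.2 ± 5.88 CPM, and its log2 fold change of 0.08 ± 0.117 turned to -0.14 with the GC correction and to -0.0035 with scaling by library size only.

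**Figure D3:**
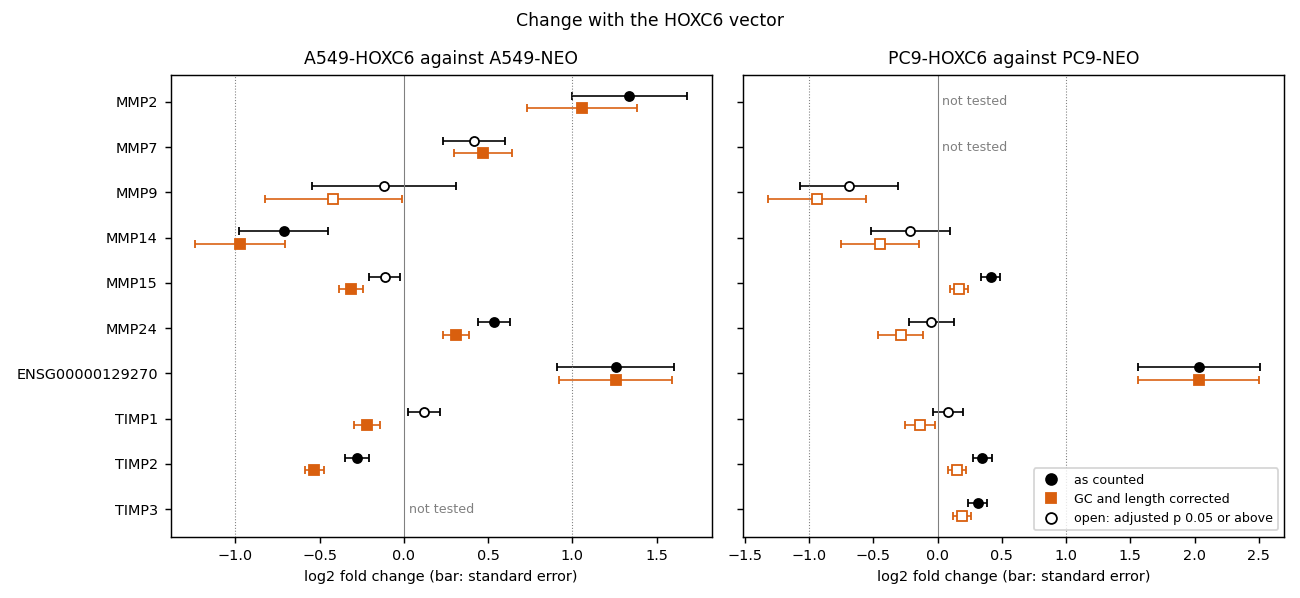
Log2 fold change of each gene between HOXC6 and NEO libraries in A549 (left) and PC9 (right), as counted (circles) and after correction for GC content and length (squares), with standard errors, where filled symbols have an adjusted p under 0.05. MMP2 and ENSG00000129270 lay above 1 in A549, and in PC9 the filled circles of MMP15, TIMP2 and TIMP3, at 0.41, 0.35 and 0.31, became open squares.

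The difference between the lines was tested as an interaction over all 12 libraries, the change in A549 minus the change in PC9. Of 10 members tested, 1 passed both thresholds, against 5.15% of all genes tested. It was positive, against 2.76% of all genes, and none was negative, against 2.38%. At an adjusted p under 0.05, 4 passed, against 19.4%, with 2 positive against 10.9% and 2 negative against 8.44%. MMP2 and MMP7 entered through A549 alone, with both PC9 groups at or under the floor, and no difference is given for them. TIMP3 entered through PC9, where it is high, and is the member past both thresholds, so that count is no support. Its fitted difference was 3.61 ± 0.565 on the log2 scale (adjusted p = 7.6e-06 by edgeR), but its size depends on A549-NEO libraries of 1 count each. Measured in summed counts, the A549 ratio was 17.3 with a counting interval of 5.50 to 87.8, beside a 1.24-fold change in PC9. TIMP2 moved in opposite directions, -0.28 in A549 and 0.35 in PC9, and the difference was -0.58 ± 0.106 (adjusted p = 1.0e-04). It was -0.64 after the GC correction, although the change in PC9 alone no longer passed. The difference of MMP15 was -0.48 ± 0.123 (adjusted p = 0.0041), and after the GC correction -0.42 ± 0.102 (adjusted p = 0.0020).

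MMP24 differed by 0.64 ± 0.198 (adjusted p = 0.0187 by edgeR). This difference missed the threshold with DESeq2 (0.57, adjusted p = 0.0680), without the first PC9-NEO library (0.48, adjusted p = 0.103) and without the third PC9-HOXC6 library (0.38, adjusted p = 0.188). MMP9, MMP14, TIMP1 and ENSG00000129270 gave differences of 0.62, -0.45, 0.08 and -0.73, none of which passed. The difference of MMP9 was 0.032 without the third A549-HOXC6 library. For ENSG00000129270 the 95% interval of the difference was -1.96 to 0.49, so the changes of 1.26 in A549 and 2.03 in PC9 were not separated.

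The balance of enzyme to inhibitor was measured as the log2 ratio of 2 genes within a library, in counts per kb plus 0.5 count, which does not depend on the scaling between libraries. No correction for GC content was made to these ratios. ENSG00000129270 has no length and was used per gene. With 3 libraries against 3, the exact two-sided permutation test cannot go below 0.1, and over the 13 ratios tested its smallest adjusted value was 0.186, so none could pass.

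In A549 the ratio of MMP2 to TIMP2 was -6.60, -6.72 and -7.46 with NEO against -5.86, -5.43 and -4.68 with HOXC6. All A549-HOXC6 libraries were higher, by 1.60 on average (exact p = 0.1), and by 1.28 without the third A549-HOXC6 library. MMP2 to TIMP1 was higher by 1.204 and MMP24 to TIMP2 by 0.80, both with no overlap between groups. Without the third A549-HOXC6 library these were 0.95 and 0.70. MMP14 to TIMP2 was lower in both lines, by -0.42 in A549 and -0.50 in PC9, again with no overlap. ENSG00000129270 to TIMP1 was higher by 1.23 in A549 and 1.90 in PC9, with no overlap in either line.

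MMP15 to TIMP2 differed more between the lines than with the vector. It was -1.34 ± 0.0889 in A549-NEO and -1.17 ± 0.147 in A549-HOXC6, and 0.02 ± 0.153 in PC9-NEO and 0.09 ± 0.141 in PC9-HOXC6, with overlap within each line. MMP7 to TIMP1 in A549, MMP9 to TIMP1 in both lines and MMP24 to TIMP2 in PC9 also overlapped. Summed per kb over the 6 named metalloproteinases and the 3 TIMPs, the ratio of enzyme to inhibitor was 0.334 to 0.362 in A549-NEO and 0.388 to 0.432 in A549-HOXC6, and 0.395 to 0.431 in PC9-NEO and 0.410 to 0.479 in PC9-HOXC6. MMP15 made up 48.1 to 50.6% of the enzyme sum in A549-NEO and 37.3 to 41.9% in A549-HOXC6, where MMP24 was higher. In PC9 its share was 75.5 to 82.6% with NEO and 81.3 to 87.4% with HOXC6.

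**Figure D4:**
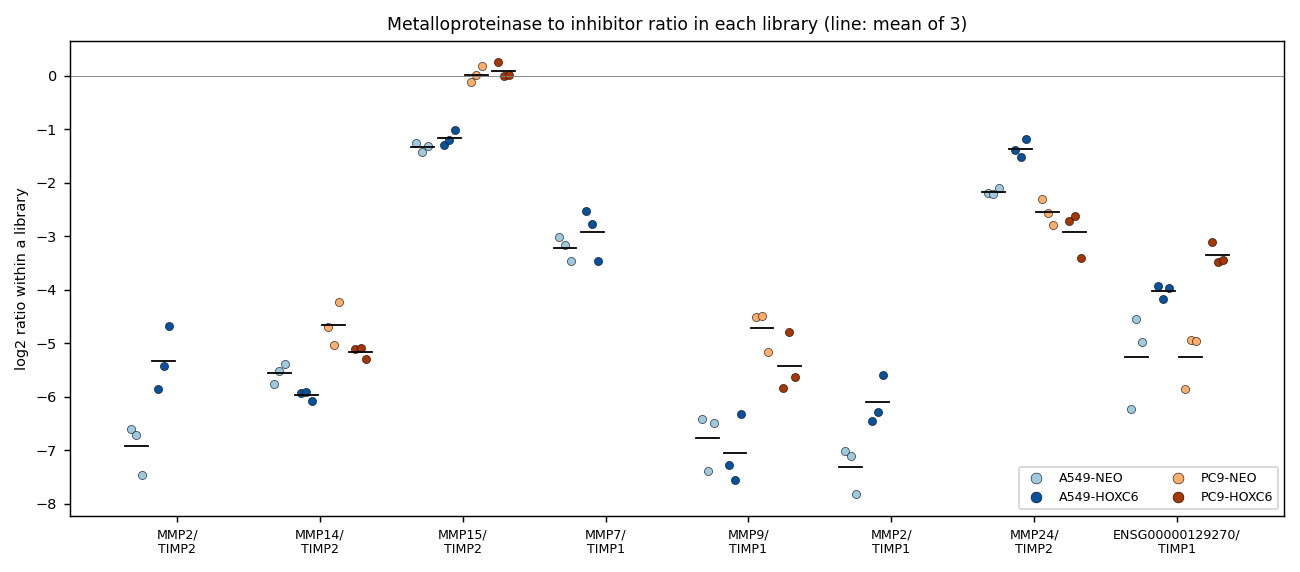
Log2 ratio of a metalloproteinase to an inhibitor within each library, with a line at the mean of 3 libraries. The ratio of MMP2 to TIMP2 was higher in the A549-HOXC6 libraries by 1.60 on average, and the ratio of MMP15 to TIMP2 was near 0 in PC9 and between -1.43 and -1.01 in A549.

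Of the other metalloproteinases and TIMP4, 13 of 18 listed genes were in the table and few were measurable. TIMP4, an inhibitor of restricted tissue expression, had 15, 24 and 22 counts in A549-NEO against 56, 19 and 43 in A549-HOXC6, or 5.19, 9.62 and 8.63 against 20.3, 16.2 and 22.9 CPM. The groups were apart, and TIMP4 rose with a log2 fold change of 1.33 ± 0.282 (adjusted p = 4.5e-04 by edgeR), which was 1.01 after the GC correction. In PC9 TIMP4 went from 5.94 ± 2.22 to 10.7 ± 1.196 CPM and did not pass (0.80 ± 0.342, adjusted p = 0.0819), and it was 0.63 after the GC correction (adjusted p = 0.200). TIMP4 shares 170 of 1194 exonic bases with SYN2 on the opposite strand.

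MMP11, a stromelysin often produced by tumor stroma, had 4, 3 and 1 counts in A549-NEO against 8, 10 and 20 in PC9-NEO (log2 fold change -2.49 ± 0.545, adjusted p = 1.1e-04 by edgeR). MMP11 entered that test through PC9-NEO alone, with A549-NEO near the floor of 3 counts, so the fitted size is no support. In A549-HOXC6 it had 2, 0 and 22 counts, the last in the library that stood apart. MMP19 rose in neither line by the test (0.47, adjusted p = 0.0518 in A549, and 0.18, adjusted p = 0.480 in PC9), nor did MMP25 (0.22, adjusted p = 0.357, and -0.02, adjusted p = 0.949). With the GC correction MMP19 was at 0.21 in A549 and -0.0040 in PC9, and MMP25 at 0.0079 and -0.27, none of which passed. MMP13 reached 10 counts in the third PC9-NEO library and was at 0 in every A549 library but the third A549-HOXC6 library, with 1 count. MMP8, MMP16, MMP20, MMP21 and MMP27 each had 1 count in the third A549-HOXC6 library, 0 in the other A549-HOXC6 libraries and at most 3 counts in any library. MMP3 and MMP10 had at most 3 counts in any library, and MMP26 had none. MMP1, MMP12, MMP17 and MMP23B were not analysed here, nor was the identifier under which the annotation lists MMP28.

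Proteins that activate or restrain metalloproteinases changed in both directions. In A549, 20 of 22 measured genes of that list were tested, and 8 rose and 7 fell at an adjusted p under 0.05, against 18.9% and 20.7% of all genes. With the GC correction 6 rose and 5 fell. Over all genes 2779 of 8771 passed in either direction with the correction, against 3469 without it. The median log2 fold change was 0.12 beside -0.00047 over all genes. THBS1, a matricellular protein that binds MMP2, rose from 22.9 ± 4.02 to 68.5 ± 8.14 CPM (log2 fold change 1.55 ± 0.170, adjusted p = 5.0e-08 by edgeR). PLAU, urokinase, which generates plasmin that activates several proenzymes, fell from 811 ± 25.1 to 383 ± 24.8 CPM (-1.12 ± 0.0782, adjusted p = 1.0e-11). After the GC correction the changes of THBS1 and PLAU were 1.65 and -1.41. In PC9, 11 of 20 rose and 2 fell, against 13.3% and 14.2% of all genes, and after the GC correction 9 rose and 1 fell. Over all genes 1742 of 8419 passed in either direction with the correction, against 2316 without it. The median of the list was 0.34 beside -0.0046 over all genes, and 0.22 after the correction. SPOCK1, a testican proteoglycan, rose from 11.5 ± 2.49 to 34.8 ± 6.11 CPM (1.62 ± 0.222, adjusted p = 1.9e-06), with 1.67 after the GC correction. PLAT, tissue plasminogen activator, rose from 91.8 ± 8.63 to 206 ± 16.4 CPM (1.16 ± 0.0964, adjusted p = 2.4e-10), with 0.97 after the GC correction.

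Between the NEO lines, 7 of 21 tested genes of this list were higher and 7 lower in A549 past both thresholds, against 19.6% and 16.4% of all genes. ST14, the membrane protease matriptase, had 2 summed counts in A549-NEO and 2411 in PC9-NEO. It entered the test through PC9-NEO alone, so it is no support in the count of lower genes. LCN2, a lipocalin that binds MMP9, was at 13.8 ± 3.98 CPM in A549-NEO and 747 ± 29.0 CPM in PC9-NEO. PLAU was higher in A549-NEO, with a log2 fold change of 3.31, while PLAT was lower at -3.11. The interaction of PLAU was -1.25, of THBS1 1.84, of SPOCK1 -1.35 and of LRP1, an uptake receptor for proteases and TIMPs, -1.11, with adjusted p-values from 5.2e-10 to 9.7e-04 by edgeR.

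Among the matrix and basement membrane substrates, 18 genes were tested in A549, and 4 rose and 6 fell, against 18.9% and 20.7% of all genes, with a median of -0.06. The proteoglycan VCAN fell from 413 ± 16.6 to 167 ± 20.1 CPM, the laminin chain LAMB1 from 1083 ± 33.5 to 477 ± 52.4 CPM and the laminin chain LAMA3 from 258 ± 2.54 to 117 ± 15.4 CPM, with log2 fold changes of -1.34, -1.23 and -1.18. After the GC correction these were -0.96, -1.34 and -1.22, so VCAN was no longer past the threshold of 1. VTN, vitronectin, rose by 1.15 on the log2 scale, and by 0.81 after the GC correction. In PC9, 14 were tested, 7 rose and none fell, against 13.3% and 14.2% of all genes, with a median of 0.46, and none was past a log2 fold change of 1. The differences between the lines of LAMB1 (-1.66) and LAMA3 (-1.53) passed both thresholds. Of the ADAM and ADAMTS proteases, 1 of 15 tested rose and 4 fell in A549, and 3 of 15 rose and 2 fell in PC9, none past a log2 fold change of 1. Of the transcription factors known at metalloproteinase promoters, such as AP-1 and ETS members, 4 of 18 rose and 5 fell in A549, and 5 of 16 rose and 3 fell in PC9, again none past 1. The shares of all genes that rose and fell were 18.9% and 20.7% in A549 and 13.3% and 14.2% in PC9. The GC correction left 4 substrates higher and 7 lower in A549 and 7 and 0 in PC9, 1 and 4 of the proteases in A549 and 1 and 1 in PC9, and 2 and 6 of the factors in A549 and 3 and 2 in PC9. Over all genes it left 2779 of 8771 in A549 and 1742 of 8419 in PC9, in either direction. With it, TFAP2A moved past 1 in A549, from -0.96 to -1.10. Between the NEO lines 9 of these 18 factors were past both thresholds and higher in A549, against 19.6% of all genes, among them TWIST1, ATF3, FOSL2, ETS2 and ETS1. TWIST1 and ATF3 entered that test through A549-NEO, where they are high, so they are no support in this count.

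Genes with the most similar pattern were found by the Pearson correlation of log2 CPM over the 12 libraries, among 7889 genes. The 12 libraries fall into 2 lines, so most of each correlation is the difference between them. The nearest genes were COL6A2, SMAD6 and ALDH3B1 for TIMP1 (r = 0.996 each), LTBP4, FA2H and BTG1 for TIMP2 (0.995 to 0.998), and ARRB1, SOX13 and PLXNA1 for TIMP3 (0.993 to 0.996). For MMP2 they were CCT7, TRIM47 and NAGLU (0.980 to 0.982), and for MMP14 GTPBP4, KIF16B and SLFN5 (0.914 to 0.941). For ENSG00000129270, which changed with the vector in both lines, they were SHISA5, TIMP4 and FN1 (0.925 to 0.928).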

How the data were processed

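Polyadenylated RNA of stably infected A549 and PC9 cells was made into libraries with a directional kit and sequenced as paired reads. The deposited values are the authors' raw counts of reads per gene, made with HISAT2 2.1.0 on GRCh37.p13 and HTSeq 0.9.1 (per the labels). The strand setting and annotation release are not given in the sources used here. The table held 12584 complete genes, 1 incomplete last line was left out, and totals were 1212053 to 3286577 counts per library.

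Groups came from the sample labels. Counts were filtered with filterByExpr, scaled by TMM and tested over all genes with edgeR 4.0.16 (quasi-likelihood, R 4.3.3) and Benjamini-Hochberg adjustment, with calls at 0.05 for the adjusted p and 1 for the size of the log2 fold change, the thresholds of the study's methods. Levels are TMM-normalized CPM. Exons, lengths, GC content and positions came from GENCODE for GRCh37, which held 9 of the 10 genes. Genes at the floor of 3 counts were compared by ratios of summed counts with exact conditional binomial intervals, which cover counting error only. Deviations of same-numbered libraries, pairs between the NEO lines included, correlated at -0.048 to 0.042, so the main tests did not pair the libraries. Such weak correlations cannot exclude that libraries of the same number were prepared together. Replicates of each group differed by more than sampling noise (chi-square per degree of freedom 1.58 to 4.26). Alternatives were DESeq2 1.42.0, other scalings and filters, a correction for GC content and length (mgcv 1.9.3), a replicate block and leaving out each library. The tests were checked on simulated counts.

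All 10 members are described, as is any other MMP or TIMP gene with more than 3 counts in a library. Of the other lists, at most 5 genes per comparison past the thresholds are named, and 3 genes of like pattern for 6 members. Of these, 1 gene that the rule would name is not reported here. The members and lists were chosen with earlier results of these data known. MMP3, MMP8, MMP10, MMP16, MMP20, MMP21, MMP26, MMP27, MMP24OS, WNT6, ALPP, TFAP2A and the single markers of other cell types fall outside this rule and were named after their values were seen.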

Additional observations from a re-analysis of the deposited data

Results flagged for a closer look

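A fitted change that differed between A549 and PC9 by the interaction test of edgeR (adjusted p under 0.05, 12 libraries) was found for 4 members. The difference was 3.61 for TIMP3 in log2 units, A549 minus PC9, but TIMP3 had 1 count in each A549-NEO library and passed the filter through PC9, where it had 405 to 926 counts, so this value is no support for a difference of that size. TIMP2 differed by -0.58, lower with HOXC6 in 3 of 3 A549 libraries and higher in 3 of 3 PC9 libraries. MMP15 differed by -0.48, with overlapping groups in A549 and all PC9-HOXC6 libraries above PC9-NEO. MMP24 differed by 0.64, with all A549-HOXC6 libraries above A549-NEO and overlapping groups in PC9, and this difference missed the threshold with DESeq2 and without either of 2 PC9 libraries.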

How the results depend on the processing

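Of 525 log2 fold changes of members under alternatives, 485 kept their direction and side of the threshold, 21 lost and 6 gained significance and 13 turned sign. Of 91 values of ratios between members, 89 kept their direction and 2 turned sign, both of MMP15 to TIMP2 in PC9, which ran from -0.013 to 0.15 with a library left out. No ratio could pass in this design. All 17 ratios of summed counts stayed within their counting interval. The counts of members past both thresholds (2 in A549, 1 in PC9, 5 between NEO lines, 1 in the interaction) moved to 1, 0, 3 and 0 when at least 10 counts were required in every library, which removes low genes by construction, and to 5, 4, 7 and 4 without the fold change criterion. They were 3 in A549 and 7 between NEO lines with DESeq2, without the filter and in the fit of all 12 libraries. With a library left out they were 2 to 3 and 5 to 7, but the A549 members behind the count changed. Without the third A549-HOXC6 library MMP2 was lost and TIMP3 was called instead (4.14). Without the first A549-NEO library ENSG00000129270 was lost and TIMP3 was called instead (3.78). In these fits TIMP3, with 1 count in each A549-NEO library, entered through A549-HOXC6, so it is no support. The sign turned only for changes that had not passed. For MMP9 in A549 leaving out a library gave -0.68 to 0.18, for MMP24 in PC9 -0.21 to 0.21 and for TIMP1 in the interaction -0.0064 to 0.17. TIMP1 turned with the GC correction, alone and with the replicate block, to -0.22 and -0.21 in A549, -0.14 and -0.14 in PC9 and -0.019 and -0.0091 in the interaction, and in PC9 also to -0.0035 with library size only. The cause was not tested.

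With the GC correction and the replicate block together, MMP15 and TIMP3 in PC9 passed (0.17, adjusted p = 0.0333, and 0.19, adjusted p = 0.0299 by edgeR), and TIMP2 did not (0.16, adjusted p = 0.0646). With the replicate number as a block alone, 33 of 33 member values kept direction and side, and the members past both thresholds remained 2, 1, 5 and 1 in number. Over all genes the block gave 150 higher and 493 lower calls in A549 (149 and 483 without it) and 83 and 293 in PC9 (81 and 300). The GC correction reduced these to 114 and 224 in A549 and 57 and 136 in PC9. A minimum of 10 counts in every library gave 95 and 324 in A549 and 52 and 181 in PC9. Depth limited MMP2, MMP9, MMP14, TIMP4 and ENSG00000129270, which had at most 56 counts in any library.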
